A study of Mus musculus with 6 samples.

Results

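The replication-dependent histone genes were the protein-coding rows of the deposited gene table whose names begin with Hist1, Hist2, Hist3 or Hist4. There were 67 of them among 54532 genes, and 3 further rows with such names were left out because they are annotated as pseudogenes. They divide into 6 H1 genes, 18 H2A genes, 18 H2B genes, 12 H3 genes and 13 H4 genes. On the mouse genome build GRCm38, 54 lie in the Hist1 group on chromosome 13, 10 in the Hist2 group on chromosome 3, 2 in the Hist3 group on chromosome 11 and 1, Hist4h4, on chromosome 6.

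mRNA was measured in whole ovaries of C57BL/6 mice at 16.5 dpc (days post-coitus), with 3 control (Ctrl) libraries labelled as wild type and 3 cKO libraries. The cKO mice were Stra8-GFPCre Srsf1 Fl/Fl: exons of Srsf1, which encodes a splicing factor, are removed by a Cre that is switched on in germ cells as they enter meiosis, so the somatic cells of the ovary keep the gene. Srsf1 itself was at 80.2, 70.1 and 63.1 FPKM (fragments per kilobase of gene and 1000000 fragments) in the Ctrl libraries and at 32.4, 37.0 and 36.4 in the cKO libraries, a log2 fold change of -0.99. A lower level in whole ovaries can come from fewer cells of a type or from less RNA per cell, and bulk libraries cannot tell these apart. The study's methods call the libraries biological replicates, without saying whether each came from separate animals, so the tests measure the spread between libraries.

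The core histones H2A, H2B, H3 and H4 form the spool around which DNA is wound, and H1 binds where the DNA enters and leaves it. A cell makes most of its new histones while it copies its DNA, from clustered genes that lack introns for the most part. Their mRNAs are the known exception among those of animals: instead of a poly(A) tail they end in a short hairpin, the histone stem-loop, which the protein SLBP binds and next to which the U7 small nuclear RNA directs the cut. Some of these genes can also end further downstream at an ordinary poly(A) site. The libraries here were made from RNA selected on poly-T, and the values below are therefore levels of histone RNA that such a selection kept. Female germ cells at 16.5 dpc have finished the DNA synthesis that precedes meiosis, whereas the somatic cells around them may still divide.

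The stem-loop was searched in the annotated transcripts of every protein-coding gene (GENCODE M21) as a 6-base stem made of GG, a pair of bases that are each C or T, and CT, followed by a 4-base loop that starts with T and by the reverse complement of the stem. It was present in 46 of the 67 histone genes and in 11 of 21834 other protein-coding genes (0.0504%). There were 8 forms, shown here because they separate the H4 genes from the others, with the stem in capitals and the loop in lower case.

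Form in 26 genes of the types H1, H2A, H2B and H3: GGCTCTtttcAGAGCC
Form in 6 genes of the types H1, H2B and H3: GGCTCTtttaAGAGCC
Form in Hist2h2ac: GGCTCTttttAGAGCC
Form in Hist1h3g: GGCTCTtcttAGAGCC
Form in 7 H4 genes: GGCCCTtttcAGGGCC
Form in Hist1h4i and Hist2h4: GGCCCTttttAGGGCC
Form in Hist1h4a: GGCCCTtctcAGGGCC
Form in Hist1h4b and Hist1h4j: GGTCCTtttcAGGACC

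No stem was shared between the H4 genes and the other types. The most frequent form includes Hist1h2bj, where it lies at chr13:22043638-22043653 on the plus strand, and Hist1h1c, at chr13:23739512-23739527 on the plus strand. In Hist1h4i the form with a loop of T only lies at chr13:22040966-22040981 on the minus strand. All 3 positions are in the annotated 3′ UTR region, after the stop codon.

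The histone RNA that the poly-T selection kept was at low levels and uneven between the genes. The deposited FPKM values could be turned back into whole reads, and the 67 genes together held between 1559 and 2278 reads per library, out of 14212164 to 16784241 reads on genes. Of the 67, 60 had at least 1 read in some library, 23 had a mean of at least 1 FPKM over the 6 libraries and 6 had a mean of at least 5 FPKM. The 5 genes of highest mean FPKM were Hist1h4i (15.6), Hist1h1c (15.2), Hist3h2ba (14.6), Hist2h2be (13.0) and Hist1h2bc (6.89), and together they held 71.2% of all reads on these 67 genes. By contrast, H3f3b, a gene outside these clusters that encodes the replacement histone H3.3, ranged from 251.6 to 305.4 FPKM over the 6 libraries. Both are levels after selection on poly-T, so the contrast is not one of total expression.

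Summed reads of the 67 genes did not separate the groups. They came to 146.5, 107.7 and 93.0 reads per 1000000 reads on genes (RPM) in the Ctrl libraries and to 132.9, 128.2 and 116.4 in the cKO libraries, or 115.8 ± 27.6 against 125.9 ± 8.48 (mean ± SD, n = 3 each). The cKO values all lie inside the range of the Ctrl values. The ratio of the group means was 1.09.

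Each histone type also overlapped between the groups. Some of these sums rest to a large part on a single gene. Hist1h1c held 458 of 477 H1 reads in Ctrl 1 and 271 of 350 in cKO 1. Hist2h2be held 672 of 1201 H2B reads in Ctrl 1 and 425 of 878 in cKO 1. Hist1h4i held 192 of 253 H4 reads in Ctrl 1 and 306 of 550 in cKO 1. H1 genes were at 30.7, 23.9 and 18.6 RPM in Ctrl and 22.5, 24.3 and 38.2 in cKO, with the highest value in cKO 3. H2A genes were at 16.3, 9.79 and 9.43 RPM in Ctrl and 10.3, 13.5 and 8.58 in cKO. H2B, the type with the most reads (48.9% of all), was at 77.2, 55.1 and 46.0 RPM in Ctrl and 56.3, 65.9 and 53.3 in cKO. Ctrl 1 was the highest library for H2A and for H2B. The H2B ratio of cKO over Ctrl was 0.98 in reads and 1.18 in summed FPKM. H3 genes were at 6.05, 4.26 and 5.25 RPM in Ctrl and 8.60, 6.32 and 3.73 in cKO. H4 genes were at 16.3, 14.7 and 13.8 RPM in Ctrl and 35.3, 18.2 and 12.7 in cKO. For H3 and H4 the cKO libraries thus hold both the highest and the lowest value, and cKO 1 is the highest. The H4 ratio of cKO over Ctrl was 1.48 with all libraries and 1.04 without cKO 1.

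**Figure D1:**
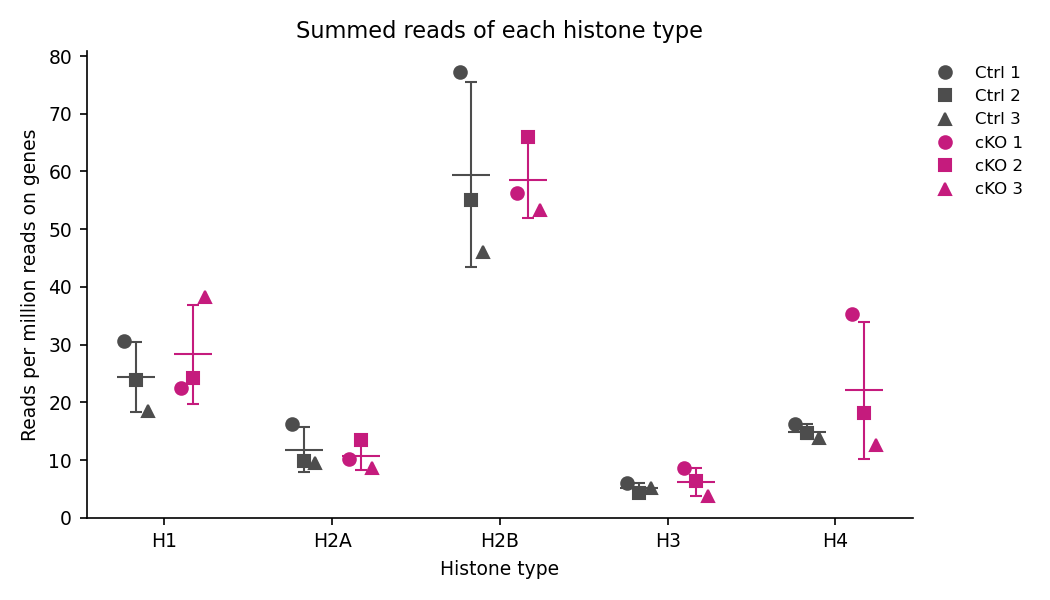
RPM of each histone type (vertical axis) in the 3 Ctrl and 3 cKO libraries. Each marker is a library, the wide bar is the group mean and the error bar 1 SD. Most H1 reads are on Hist1h1c. For every type the groups overlap, and in H4 the cKO 1 library, at 35.3, stands above the other 5, which lie between 12.7 and 18.2.

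Each gene was tested in a fit over all 17180 genes with a mean of at least 0.5 FPKM (limma on log2(FPKM + 1), 2-sided), and a gene was counted at an unadjusted p below 0.05. At that limit 4.43% of all tested genes passed in either direction and 2.68% passed as higher in cKO. Of the 67 histone genes 33 were tested, 27 had reads but were too low to test and 7 had none. Among the 33, 1 rose (Hist1h2bj) and 0 fell, which is 3.03% and no more than the share of all genes. No tested gene of the whole table passed after Benjamini-Hochberg adjustment: the smallest adjusted p in limma was 0.392 over all genes and 0.978 among the histone genes. On the voom fit of the recovered reads, 0 histone genes passed at an unadjusted p below 0.05, beside 4.03% of all genes. Leaving out cKO 3 gave 5 higher and 0 lower among the 33, beside 2.47% of all genes in either direction, and leaving out Ctrl 2 gave 0 higher and 2 lower, beside 2.12%.

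Hist1h2bj, an H2B gene of the Hist1 group (ENSMUSG00000069300), was at 1.58, 1.20 and 1.61 FPKM in Ctrl against 7.82, 2.96 and 2.28 FPKM in cKO. All 3 cKO libraries lie above all 3 Ctrl libraries, and cKO 1 lies far above the other cKO libraries. These levels correspond to 11, 9 and 13 reads in Ctrl and 56, 23 and 15 reads in cKO. The log2 fold change was 0.98 ± 0.36 (SE), with a limma p of 0.0301 (adjusted p = 0.978). The change was 1.27 without cKO 3 and 0.55 without cKO 1, with p below the limit in both, and leaving out any of the Ctrl libraries or using voom took p to between 0.0527 and 0.0833.

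More of the 33 tested genes had a fold change above 0 than below, and no test was made of this count. On the log2(FPKM + 1) scale 23 were above 0 and 10 below, with a median of 0.20, beside a median of -0.01 and 47.9% above 0 for all tested genes. Without cKO 1 the median of the 33 was 0.02. In 2 of the 33 (6.06%) the groups did not overlap, Hist1h2bj and Hist1h4n, both higher in cKO, beside 8.68% of all tested genes in either direction. Hist1h4n had 1, 5 and 7 reads in Ctrl and 10, 7 and 6 in cKO, in FPKM 0.93 at most in Ctrl and 0.97 at least in cKO. Of its 150-base stretches 22.8% occur in no other gene's transcripts, so its reads are uncertain. By type, the median log2 fold change was 0.12 over 2 H1 genes, -0.25 over 6 H2A genes, 0.34 over 10 H2B genes, 0.16 over 6 H3 genes and 0.45 over 9 H4 genes. A gene could enter the test through a high value in 1 library, since the limit was set on the mean. Hist1h1a, Hist1h4f and Hist1h2ba did so through cKO 1, and they are part of the counts and medians given here. These counts describe the tested genes and not all 67, and the medians by type were not taken without cKO 1.

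**Figure D2:**
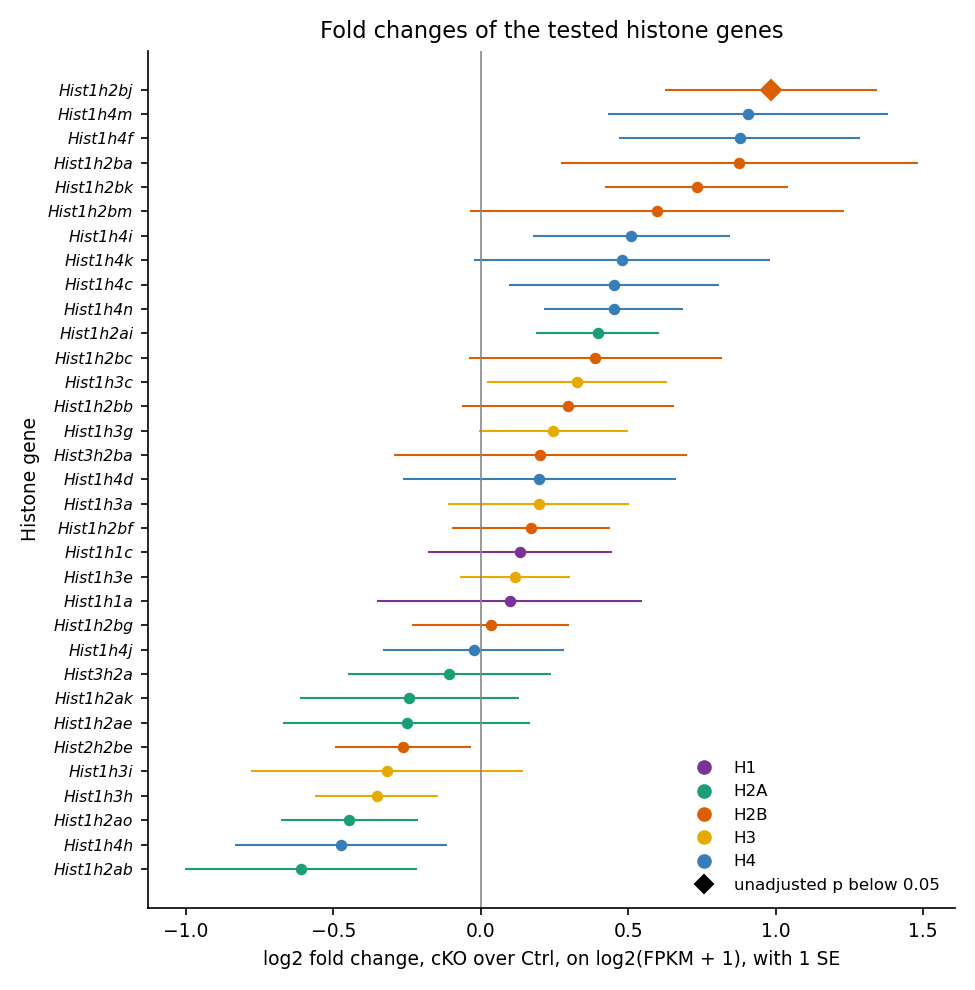
The log2 fold change of each tested histone gene, cKO over Ctrl on log2(FPKM + 1) (horizontal axis), with 1 SE, coloured by histone type and ordered by size. Hist1h2bj, at 0.98, is the only gene drawn as a diamond, the sign for an unadjusted p below 0.05. Of the 6 H2A genes 1 lies above 0, and of the 9 H4 genes 7 do.

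The library cKO 1 was the highest in most of the tested histone genes. It held the highest value of the 6 libraries in 18 of the 33 tested histone genes (54.5%), whereas it was the highest library in 17.4% of all tested genes. Some genes, Hist1h1a, Hist1h4f and Hist1h2ba, reached the test only through cKO 1. With the minimum set on the other 5 libraries, a choice made after seeing the data, it was the highest in 15 of 30 histone genes beside 16.6% of all genes. Over all genes with reads it was the highest in 23 of 60 histone genes (38.3%) beside 18.9% of all. These are descriptions, and no test was made of them. The next was Ctrl 1, the highest in 8 of the 33, beside 18.9% of all genes. The other 4 libraries were each the highest in 1 or 2. The plot of levels by library shows this as the cKO 1 marker at the top of 8 of the 9 H4 genes, while of the 6 H2A genes only Hist1h2ak has it at the top.

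**Figure D3:**
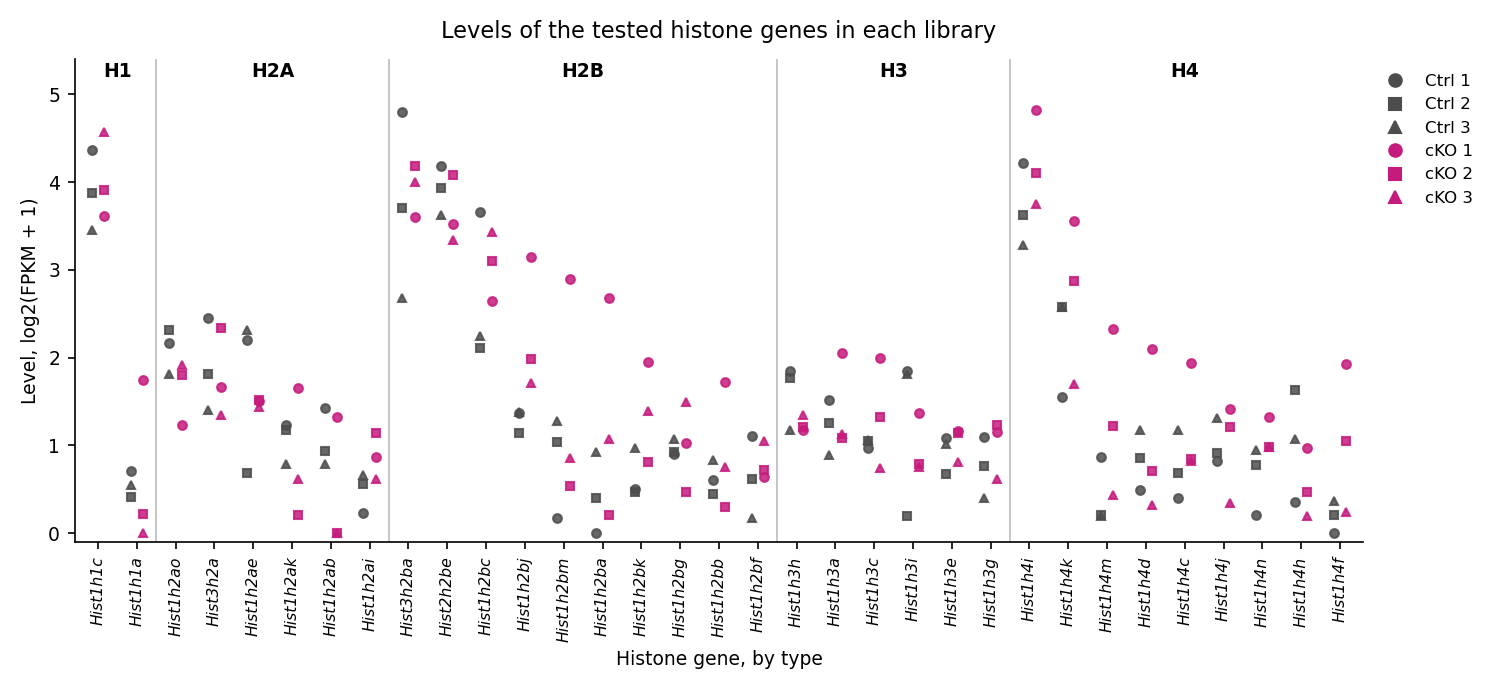
Level of each tested histone gene as log2(FPKM + 1) (vertical axis) in each library, grouped by histone type and ordered by mean level within a type. Each marker is a library, and the library cKO 1 is the highest in 18 of the 33 genes. The highest genes of H1, H2B and H4 lie well above the remaining genes of their types, and the highest value of any H2A or H3 gene is 4.47 FPKM.

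Members were then set out by where their annotated transcript ends, a grouping made after the values had been seen. In 23 genes the transcript ends within 100 bases of the stem-loop. In 17 genes it holds no stem-loop and stops within 100 bases of the stop codon, so that the annotation covers little beyond the coding part. In 23 genes it runs 100 bases or more past the stem-loop, and in 4 genes (Hist1h2bc, Hist1h2bq, Hist1h2br and Hist2h2be) it has no stem-loop but runs 100 bases or more past the stop codon. A poly(A) signal, AATAAA or ATTAAA on the transcript's own strand, was present in the last 40 bases in 12 of 23 and 3 of 4 genes of the long kinds and in 2 of 23 and 0 of 17 of the short kinds, beside 48.7% of the transcripts of other protein-coding genes.

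Most reads lay with a few genes that have long annotated ends. The 27 genes with long ends held 87.5% of the histone reads and the 40 with short ends 12.5%; a long transcript also gathers more reads than a short one at the same level. Per length, all 5 genes of highest mean FPKM have long ends, and these alone held 71.2% of the histone reads. The median of the mean FPKM was 0.47 over the 27 genes with long ends and 0.65 over the 40 with short ends. The larger share of reads thus came from a few genes and not from most of the 27. The highest gene with a short end was the H4 gene Hist1h4k, at a mean of 5.19 FPKM. Hist1h4k has a model of the coding part alone, and 46.6% of the 150-base stretches of that model occur in no other gene's transcripts.

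Genes with short annotated ends were highest in cKO 1 and nearer to each other in the other 5 libraries. Their sum was 12.0, 12.6 and 12.6 RPM in Ctrl and 30.4, 12.6 and 10.3 in cKO. In reads, these were 186, 198 and 211 in Ctrl against 474, 211 and 146 in cKO. The groups overlap: cKO 1 is the highest of the 6 libraries and cKO 3 the lowest. The ratio of cKO over Ctrl was 1.43, and 0.92 without cKO 1. In both kinds of short end cKO 1 was the highest library. The genes that end at the stem-loop were at 7.91, 8.01 and 7.22 RPM in Ctrl and 19.8, 7.98 and 7.04 in cKO. For these 23 genes the ratio was 1.505, and 0.97 without cKO 1. The genes with no stem-loop that stop near the stop codon spread more, at 4.05, 4.58 and 5.37 RPM in Ctrl against 10.6, 4.59 and 3.24 in cKO, with a ratio of 1.31, or 0.84 without cKO 1.

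Genes with long annotated ends followed another order. Their sum was 134.5, 95.1 and 80.4 RPM in Ctrl and 102.5, 115.6 and 106.2 in cKO, so that Ctrl 1 was the highest library and Ctrl 3 the lowest. The ratio of cKO over Ctrl was 1.05. Among tested genes, cKO 1 was the highest library in 13 of 21 with short ends and in 5 of 12 with long ends.

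**Figure D4:**
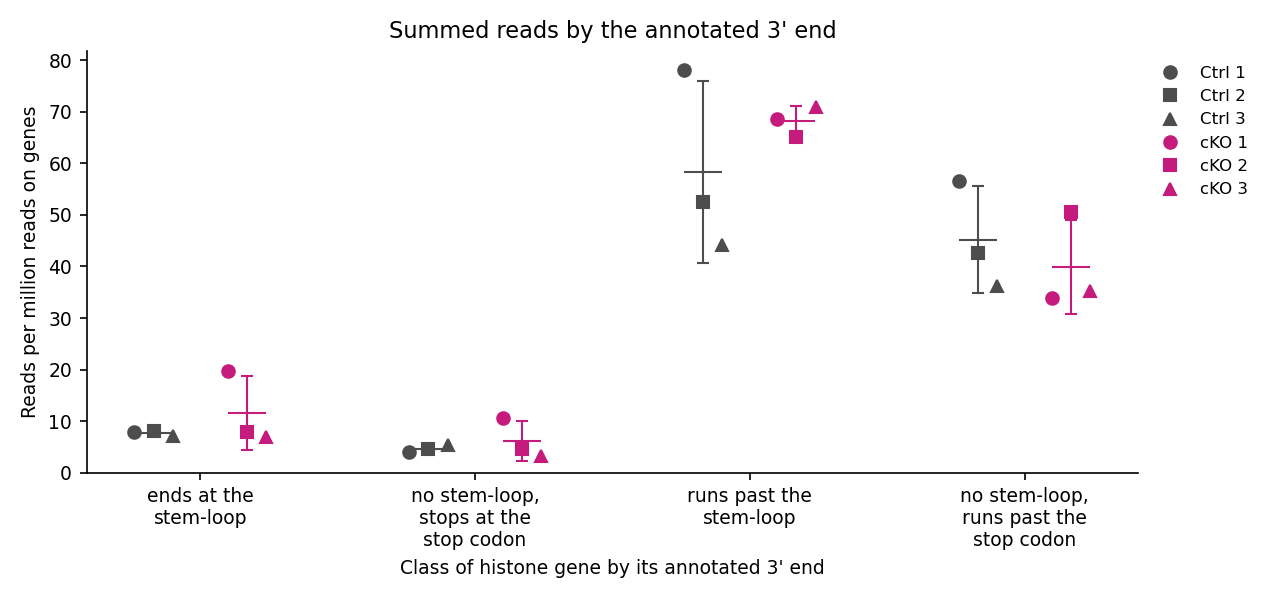
RPM (vertical axis), summed over the histone genes of each class of annotated 3′ end, in each library; wide bars are group means and error bars 1 SD. In both classes with short ends, on the left, the cKO 1 library (19.8 and 10.6) stands above the other 5, and of the classes with long ends it lies among the others in the first (68.6) and is the lowest in the second (33.9).

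H1 genes encode the linker histones. Hist1h1c, which encodes H1.2, was at 19.6, 13.6 and 9.98 FPKM in Ctrl against 11.2, 14.0 and 22.8 in cKO. Its lowest value is in Ctrl 3 and its highest in cKO 3, with a log2 fold change of 0.13 ± 0.31 (adjusted p = 0.986 in limma). Hist1h1a, which encodes H1.1, was at 0.63, 0.33 and 0.46 FPKM in Ctrl against 2.36, 0.16 and 0 in cKO. It had 27 reads in cKO 1 and at most 7 elsewhere. Its log2 fold change was 0.10 ± 0.45 (adjusted p = 0.994 in limma) and took the other sign, -0.49, with a pseudocount of 0.1.

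Among H2A genes, Hist1h2ao was at 3.47, 3.99 and 2.50 FPKM in Ctrl against 1.35, 2.48 and 2.79 in cKO. The log2 fold change was -0.45 ± 0.23 (adjusted p = 0.978 in limma), and cKO 1 was the lowest library. Its coding sequence is identical to that of Hist1h2ap, which is listed at 0 in all 6 libraries, so how reads were split between them is uncertain. Hist3h2a was at 4.47, 2.50 and 1.65 FPKM in Ctrl against 2.17, 4.05 and 1.54 in cKO, with a log2 fold change of -0.11 ± 0.34 (adjusted p = 0.99 in limma). The groups overlap in both genes.

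Among H2B genes, Hist3h2ba was among the most abundant and spread widely within Ctrl. It was at 26.8, 12.1 and 5.41 FPKM in Ctrl against 11.2, 17.2 and 15.0 in cKO. The Ctrl libraries span the cKO libraries on both sides, with a log2 fold change of 0.20 ± 0.50 (adjusted p = 0.986 in limma). Hist2h2be was at 17.1, 14.2 and 11.4 FPKM in Ctrl against 10.5, 15.9 and 9.14 in cKO, with a log2 fold change of -0.26 ± 0.23 (adjusted p = 0.978 in limma). Hist1h2bc, named after its values were seen because it is the fifth most abundant, was at 11.6, 3.31 and 3.76 FPKM in Ctrl against 5.26, 7.58 and 9.81 in cKO.

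H3 genes were low throughout, with no mean above 1.73 FPKM. Hist1h3h was at 2.60, 2.40 and 1.25 FPKM in Ctrl against 1.26, 1.31 and 1.54 in cKO, with a log2 fold change of -0.35 ± 0.21 (adjusted p = 0.978 in limma). Hist1h3a was at 1.87, 1.39 and 0.86 FPKM in Ctrl against 3.15, 1.12 and 1.19 in cKO, with a log2 fold change of 0.20 ± 0.31 (adjusted p = 0.986 in limma). In the first the 2 highest values are Ctrl libraries, and in the second the highest is cKO 1.

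H4 genes all encode the same type of core histone, and Hist1h4i stood far above the rest. It was at 17.6, 11.4 and 8.74 FPKM in Ctrl against 27.2, 16.2 and 12.4 in cKO. The cKO 1 library is the highest, the other values overlap, and the log2 fold change was 0.51 ± 0.33 (adjusted p = 0.978 in limma). Hist1h4k was at 1.92, 4.95 and 4.95 FPKM in Ctrl against 10.8, 6.30 and 2.26 in cKO, with a log2 fold change of 0.48 ± 0.50 (adjusted p = 0.978 in limma). Here too cKO 1 is the highest and the groups overlap.

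The testis-type histones replace others in the chromatin of male germ cells. Hist1h2ba, which encodes the H2B form of testis (TH2B), was listed at 0, 0.32 and 0.89 FPKM in Ctrl against 5.39, 0.16 and 1.10 in cKO. It had 32 reads in cKO 1 and at most 6 in any other library, and the log2 fold change was 0.88 ± 0.61 (adjusted p = 0.978 in limma). Hist1h2aa, its H2A partner on the opposite strand with a start 306 bases away, had 0, 3 and 0 reads in Ctrl and 1, 0 and 0 in cKO. Hist1h1t, the H1 form of testis, had 0, 2 and 0 reads in Ctrl and 5, 6 and 5 in cKO. All cKO libraries of Hist1h1t lie above all Ctrl libraries, but it was too low to enter the test.

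With Hist1h1t, 4 of the 27 histone genes that had reads but were too low to test did not overlap between the groups, all higher in cKO, beside 6.17% of all such genes in either direction. The other 3 were named after their values were seen. Hist1h2ac, an H2A gene whose transcript runs 2010 bases past the stem-loop, had 8, 3 and 2 reads in Ctrl and 19, 16 and 28 in cKO. Hist1h1e, an H1 gene, had 6, 11 and 13 reads in Ctrl and 28, 14 and 18 in cKO. Its exons overlap those of Hist1h2be on the same strand, so its reads are uncertain. Hist1h2bn, an H2B gene, had 0, 1 and 2 reads in Ctrl and 5, 7 and 2 in cKO, in FPKM 0.30 at most in Ctrl and 0.37 at least in cKO.

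The 7 genes with no reads are Hist1h2ap, Hist2h2aa1, Hist2h2aa2, Hist2h2ab, Hist2h2bb, Hist2h3b and Hist2h3c1. A count of 0 allows up to 3 reads per library, or 0.179 to 0.211 RPM, which covers counting error only. In 5 of the 7 no 150-base stretch of the transcript is unique to the gene, in Hist1h2ap 9.01% of the stretches are unique and in Hist2h2ab 47.5%. A listed 0 is therefore no measure of their expression where reads that match several genes were dropped, a setting that no source used here gives. In all, 24 of the 67 genes had fewer than 50% unique stretches, and 8 of these were tested.

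Many H2A and H2B genes stand head to head, with starts on opposite strands that point away from each other. There were 13 such pairs of histone genes with starts 176 to 660 bases apart, of which 12 were an H2A gene beside an H2B gene. In 8 of the 12 the H2B gene had the higher mean FPKM and in 4 the H2A gene. Pairs on both sides of this count hold genes with few unique 150-base stretches, such as Hist1h2ah (15.2%) and Hist1h2ai (13.9%), so the count is uncertain. Hist1h2bj, at a mean of 2.91 FPKM, starts 270 bases from Hist1h2ag, at 0.32, of whose 150-base stretches 34.5% are unique. Hist2h2be, at 13.0, starts 239 bases from Hist2h2ac, at 0.06, and Hist1h2bc, at 6.89, starts 251 bases from Hist1h2ac, at 0.33. Hist1h2ao, at 2.76, starts 268 bases from Hist1h2bq, at 0.10, but 8.46% and 0% of their 150-base stretches are unique, so the levels of that pair are uncertain.

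Promoters from RefSeq (GRCm38.p6) were matched to 61 of the 67 genes, and 4 motifs were searched on both strands of the 250 bases before the start. The letters CCAAT were present in 50 of 61 (82.0%), beside 33.8% of all 32817 promoters. By type they were present in 18 of 18 H2A, 16 of 16 H2B, 5 of 5 H1, 8 of 10 H3 and 3 of 12 H4 promoters. The letters ATTTGCAT, the octamer known from H2B promoters, were present in 7 H2A and 6 H2B promoters and in no other, beside 1.6% of all promoters. The letters AAACACA, known from H1 promoters, were in 4 of 5 H1 promoters and 8 of 61 in all, beside 6.25%, and TATAAA in 28 of 61, beside 12.4%. The head-to-head H2A and H2B genes start at most 306 bases apart, so their searched windows overlap. The same letters can then be counted for both genes, and the counts by type are not independent. A match shows only that these letters occur there.

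The last 150 bases before the start are shown for Hist1h2bj, the gene past the limit, and for Hist1h4i, the most abundant, with matches to any of the 4 motifs in capitals. The first is chr13:22043048-22043197 on the plus strand and the second chr13:22041363-22041512 on the minus strand.

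Hist1h2bj promoter: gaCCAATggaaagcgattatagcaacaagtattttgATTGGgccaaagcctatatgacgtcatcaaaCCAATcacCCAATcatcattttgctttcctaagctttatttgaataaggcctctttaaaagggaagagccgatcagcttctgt
Hist1h4i promoter: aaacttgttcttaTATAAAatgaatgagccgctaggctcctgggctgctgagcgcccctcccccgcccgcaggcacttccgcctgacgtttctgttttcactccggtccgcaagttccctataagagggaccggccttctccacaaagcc

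The Hist1h2bj stretch holds 4 matches to CCAAT or its reverse complement and none to the other motifs. The Hist1h4i stretch holds 1 match to TATAAA and none to CCAAT.

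Among genes that transcribe, cut, degrade, carry or replace these histones, 3 passed the limit, beside 4.43% of all tested genes in either direction. Of 13 genes for the cleavage of histone mRNA at its stem-loop, 0 rose and 1 fell. Slbp, which encodes the stem-loop binding protein, was at 29.4, 23.5 and 20.3 FPKM in Ctrl against 21.8, 18.3 and 24.5 in cKO, with a log2 fold change of -0.17 ± 0.17 (adjusted p = 0.978 in limma). Lsm10, a protein of the U7 particle that directs the cut, fell from 18.6, 17.4 and 14.7 FPKM in Ctrl to 11.2, 15.2 and 9.41 in cKO. The log2 fold change of Lsm10 was -0.49 ± 0.19 with a limma p of 0.0376 (adjusted p = 0.978), and cKO 2 lies within the Ctrl range. Without Ctrl 1, Ctrl 2, cKO 1 or cKO 3 the limma p of Lsm10 rose above the limit, to between 0.0962 and 0.114.

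Of 13 genes for the decay of histone mRNA, 1 rose and 0 fell. Tut4, a uridylyltransferase that adds U to RNA 3′ ends, was at 18.1, 16.5 and 21.3 FPKM in Ctrl against 39.9, 19.9 and 33.5 in cKO. The log2 fold change of Tut4 was 0.66 ± 0.26 with a limma p of 0.0364 (adjusted p = 0.978), and cKO 2 lies within the Ctrl range. Its limma p rose above the limit without the same 4 libraries in turn, to between 0.0815 and 0.115. Of 18 histone chaperones, which escort histones to DNA, 0 rose and 1 fell. Cabin1, a part of the complex that deposits H3.3, was at 10.6, 11.6 and 10.4 FPKM in Ctrl against 8.31, 9.17 and 8.38 in cKO. The groups do not overlap, and the log2 fold change of Cabin1 was -0.30 ± 0.11 with a limma p of 0.0308 (adjusted p = 0.978). Without any 1 library other than cKO 2 the limma p of Cabin1 lay between 0.0529 and 0.12.

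Of 23 genes for histone gene transcription and DNA synthesis, among them the minichromosome maintenance genes and Pcna, 0 passed at an unadjusted limma p below 0.05 in either direction. Their median log2 fold change was -0.28, with 5 above 0. Their sum was 3112, 2728 and 2027 RPM in Ctrl and 2264, 1973 and 2294 in cKO, with cKO 1 inside the Ctrl range. The relation of this sum to the histone values was not tested. The count changed with the libraries used. Without Ctrl 3, the lowest Ctrl library, 11 of the 23 fell and 0 rose, beside 6.85% of all genes past the limit in either direction. Without cKO 2, 2 rose and 1 fell, beside 14.5% of all genes, and without any other library 0 passed. On the voom fit of the recovered reads, Casp8ap2, Ccne1, Chaf1a and Tyms, genes of these lists, passed in addition. This made 7 of the lists' genes instead of 3, beside 4.03% of all genes.

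Of 12 histone genes outside these clusters, listed here as replication-independent, 11 were tested and 0 passed in either direction. Their median log2 fold change was -0.07. H2afx, which encodes the histone H2AX that is phosphorylated at DNA breaks, was at 170.7, 103.2 and 101.0 FPKM in Ctrl against 105.7, 116.0 and 125.5 in cKO. H2afz was at 108.2, 103.9 and 81.9 FPKM in Ctrl against 78.7, 92.7 and 78.6 in cKO. H3f3a was at 98.1, 77.5 and 65.5 FPKM in Ctrl against 56.0, 86.3 and 44.2 in cKO, and H3f3b at 285.7, 298.8 and 288.1 in Ctrl against 267.9, 305.4 and 251.6 in cKO. In each of the 4 the groups overlap, and the limma p lay between 0.18 and 0.762.

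RNAs that are known to carry no poly(A) tail were counted beside the histone genes. Of 15 such RNAs 6 were listed at 0 in all libraries and 4 were tested, of which 0 passed. Their sum was 3.80, 3.82 and 4.595 RPM in Ctrl and 4.11, 3.34 and 2.74 in cKO. The library cKO 1 lies within the range of the Ctrl libraries. These sums rest on few reads, at most 34 in any library for any of these RNAs. Their relation to the histone values was not tested.

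Marker genes of the cell types in the ovary also differed between the libraries. The 10 germ cell markers, none at 0 in all libraries, summed to 407.7, 913.6 and 1654 RPM in Ctrl and to 1901, 693.7 and 2105 in cKO, with Dazl and Dppa3 past the limit as higher. The order of these sums leans on Dazl, which had 9957 reads in cKO 1 and 11887 in cKO 3, against 5339 at most in Ctrl. Of the 10 log2 fold changes 9 were above 0. The other, Dnd1, was at -0.39, and its lowest library was cKO 1. The 9 pregranulosa markers ranged from 1990 to 2104 in Ctrl and from 1849 to 2521 in cKO, and none passed. The red blood cell markers, 10 of 11 in the table, were at 19460, 7092 and 4235 in Ctrl against 1356, 8485 and 8576 in cKO, sums made up mostly of the adult globins. Hbb-y, an embryonic globin, passed the limit as higher in cKO, with a limma p of 0.00589 (adjusted p = 0.978). It was highest in cKO 1, at 99.6 FPKM, and Hba-x, another, was also highest there, at 19.1 FPKM. By their sums, cKO 1 was the lowest library for red blood cell markers and the next to highest for germ cell markers, and Ctrl 1 was the highest and the lowest. The part of these differences in the histone values was not tested. Retinal markers, checked because the labels' extraction text names retinas, summed to 0.12 to 0.57 FPKM per library, with Crx at 0 in every library.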

How the data were processed

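RNA from 6 whole-ovary samples (3 Ctrl and 3 cKO) was selected on poly-T, sequenced as paired 150-base reads and, per the submitters' processing notes, aligned with HISAT2 2.0.5 to mm10 (GRCm38). FPKM values for 54532 genes were deposited by the authors, who used featureCounts for the counting. How reads matching several genes, or either strand, were counted is stated in no source used here, and 21 histone genes overlap an exon on the opposite strand.

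FPKM times gene length gave whole reads for all values within 0.05 reads, 14212164 to 16784241 per library. The divisor in FPKM was 0.965 to 1.04 times these totals, so sums are given per 1000000 recovered reads (RPM). Genes with a mean of at least 0.5 FPKM were tested in limma 3.58.1 (R 4.3.3) on log2(FPKM + 1) with an intensity trend, Ctrl against cKO, counted at an unadjusted p below 0.05. Fold changes on that scale understate the change of low genes. The fit was tested on simulated data. Low reads limit the precision: most histone genes held under 60 reads per library.

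Stem-loops, poly(A) signals and shared 150-base stretches came from GENCODE M21 transcripts, and promoters from RefSeq (GRCm38.p6). Named are Srsf1, members past the limit, the 2 most abundant tested members of each type, testis-type histones, list genes past the limit, Slbp and H2afx, H2afz, H3f3a and H3f3b. The members and lists were chosen with earlier results of these data known. Alternatives were other pseudocounts, minimum levels, scaling, voom, no trend, a replicate block and each library left out.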

Additional observations from a re-analysis of the deposited data

How the results depend on the processing

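The count of histone genes higher in cKO was 1, beside 4.43% of all genes in either direction. That share is given in brackets for each alternative. The count was 2 with a pseudocount of 0.1 (4.38%), 2 with 0.5 (4.42%) and 2 without the intensity trend (4.5%), each adding Hist1h2bk. With no minimum FPKM, 4 of 60 tested histone genes were higher (3.94%), with Hist1h1t, Hist1h2ac and Hist1h2bn new. The count was 0 with voom on the recovered reads (4.03%). It was 1 with a minimum of 1 FPKM (4.27%) or median-ratio scaling (4.42%). With single libraries left out it ranged from 0 to 5, and the count lower in cKO, 0 in all 8 other alternatives, from 0 to 2. The share of all genes past the limit in either direction ran from 2.12% to 14.5% with libraries left out. The genes of the pathway lists past the limit were 3, and 0 to 16 with libraries left out. With voom they were 7, beside 4.03% of all genes, the cause of which was not tested. The highest, 16, came without cKO 2, where 14.5% of all genes passed instead of 4.43%. Lsm10, Tut4 and Cabin1 each missed the limit in most of these.

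Hist1h1a reversed to -0.49 with a pseudocount of 0.1 and to -0.81 with voom; the cause was not tested. With libraries left out, the log2 fold change ranged from -0.45 to 0.42 for Hist1h1a, -0.14 to 0.37 for Hist1h1c, -0.12 to 0.37 for Hist1h3a, -0.38 to 0.17 for Hist3h2a, -0.32 to 0.74 for Hist3h2ba and -0.20 to 0.18 for H2afx, all of which change sign. The summed reads, cKO over Ctrl, ranged from 0.99 to 1.25 for all histone genes, 0.96 to 1.33 for H1, 0.80 to 1.12 for H2A, 0.88 to 1.16 for H2B, 0.97 to 1.44 for H3, 1.04 to 1.79 for H4, 0.92 to 1.74 for short annotated ends and 0.94 to 1.23 for long ones. Other scaling or summing FPKM moved none of these ratios by more than the spread between libraries, although H2B went from 0.98 to 1.18 with summed FPKM, which turns its direction, nor did limits of 50 or 200 bases, added after the data were seen, in place of 100; with 200 the ratio of genes ending near the stem-loop was 1.18 instead of 1.505.

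With the replicate number as a block, the paired fit, 4 histone genes were higher in cKO: Hist1h2bj, Hist1h2bk, Hist1h4i and Hist1h4m, beside 3.96% of all genes in either direction. Deviations of same-numbered libraries correlated at -0.39, -0.03 and 0.12, so the numbers are not taken to pair the libraries.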

Other observations

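By genomic group, the 54 Hist1 genes summed to 76.3, 55.1 and 53.7 RPM (reads per 1000000 reads on genes) in Ctrl and to 92.5, 66.6 and 78.6 in cKO, with cKO 1 the highest. The 10 Hist2 genes, nearly all of whose reads are on Hist2h2be, summed to 43.5, 38.9 and 31.9 in Ctrl and to 27.9, 42.3 and 24.3 in cKO. The 2 Hist3 genes summed to 25.2, 13.2 and 7.16 in Ctrl and to 11.4, 19.2 and 12.5 in cKO. In each the groups overlap, and no test was made.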
